A study of Mus musculus with 19 samples.

Results

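Collagens are built from chains that wind around each other into a helix, and 44 genes of collagen chains were measured here among 22180 genes on 19 Affymetrix mouse arrays. All genes were taken whose symbol has the form of a collagen chain (Col, a number, the letter a, a number) and that had a probe set carrying that symbol alone. Where a gene had more than 1 such probe set, as did Col1a2, Col5a1 and Col6a1 with 2 each, the one with the highest mean over all 19 arrays stood for the gene. The 44 genes were grouped into 11 chains of fibrillar collagens, 8 of basement membrane collagens, 9 of fibril-associated collagens (FACIT, collagens with interrupted helices that sit on fibrils) and 16 others.

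Fibrillar collagens, with types I, III and V as their main soft tissue forms, give connective tissue its tensile strength and are made chiefly by fibroblasts and smooth muscle cells. Type IV collagen forms the sheet of the basement membrane under endothelium and around muscle fibres, and collagens XV and XVIII are attached to that sheet. Collagen VI makes beaded filaments between basement membrane and stroma, and collagen VIII is a short network-forming collagen known from vessel walls.

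The samples were 7 tumors, described by the study as angiosarcomas (malignant tumors of endothelial lineage), 4 aortas, 4 quadriceps femoris muscles and 4 sternocleidomastoid muscles, with 1 array for each sample. The tumor genotype was aP2-Cre/+;DicerFlox/-, in which the promoter of aP2 (Fabp4, a fatty acid binding protein of adipocytes and some endothelial cells) drives Cre recombinase and the Dicer gene, needed for microRNA maturation, has a floxed and a null allele. The aortas and both muscles were wild type, and all samples shared a mixed C57Bl/6 and 129X1/SvJ background. Tissue and genotype therefore changed together, and their effects on a collagen gene cannot be told apart. The labels give no age, sex, batch or animal for a sample, so p-values measure only the spread between these samples, which may be technical.

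The tissue labels were compared with lists of cell type markers. All 10 endothelial markers passed the test as higher in tumors than in either normal tissue, and the mean of the list lay between 9.96 and 10.96 log2 units in tumors and between 8.66 and 8.78 in aortas. The aortas also carried heart muscle markers (list mean 9.09 to 9.78, against 5.36 to 6.03 in tumors). Their brown adipocyte list mean was 10.68 to 11.25, against 4.95 to 8.30 in tumors, so they were not vessel wall alone. In the muscles that list mean was 8.56 to 9.80 in sternocleidomastoid and 7.06 to 8.36 in quadriceps, highest in quadriceps 4. Ucp1, a gene of that list, had means of 11.2 in sternocleidomastoid and 5.88 in quadriceps. The sternocleidomastoid samples were therefore not muscle alone either. In the tumors the skeletal muscle list ran from 5.21 to 10.01 and was highest in tumors 2 and 7. Without these 2 tumors the same 16 collagen genes were higher than in aorta and the same 17 higher than in muscle. That setting was added after the data were seen and does not take muscle out of the tumors. The list still stood at 8.66 in tumor 1 and 8.43 in tumor 4, above the 5.47 to 7.49 of the aortas. The part of skeletal muscle content in the collagen differences was not tested. Dicer1 had mean log2 intensities of 8.53 in tumors, 8.23 in aorta, 8.76 in quadriceps and 8.42 in sternocleidomastoid, and since no source used here places its probes relative to the floxed exons, it checks nothing about the deletion.

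Of the 44 collagen genes, 16 were higher in tumors than in aorta (36.4% of the members, against 18.6% of all genes tested) and 5 were lower (17.5% of all genes; 36.2% passed in either direction), by limma with an adjusted p threshold of 0.05. Against skeletal muscle, the mean of both muscle groups, 17 were higher (38.6% of the members, against 25.3% of all genes) and 6 were lower (25.7% of all genes; 51% in either direction). The 16 genes higher than aorta were also higher than muscle; both comparisons use the same tumor arrays, and 15% of all genes were higher in both. They were Col1a1, Col1a2, Col3a1, Col5a1, Col5a2 and Col5a3 among the fibrillar chains, Col4a1, Col4a2, Col15a1 and Col18a1 of basement membranes, the FACIT chains Col12a1 and Col16a1, and Col6a1, Col6a2, Col6a3 and Col8a1. Col4a3, Col6a6 and Col20a1 were lower than both tissues, as were 11% of all genes. Without any overlap of samples, 15 of the 44 members were higher in tumors than in aorta (12.2% of all genes) and 6 lower (11.5%). Against the muscles, 16 were higher without overlap (14.6% of all genes) and 2 lower (12.7%). Because the arrays measured RNA of whole tissue, a larger share of the cells that make a collagen cannot be told apart from more RNA per cell.

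The median difference over the 44 genes was 0.14 log2 units in both tumor comparisons, against -0.02 (aorta) and -0.04 (muscle) over all genes, and it turned to -0.18 and -0.46 when arrays were centred on 10 housekeeping genes. That centring moved the median of all genes by -0.33 against aorta and by -0.59 against muscle. It kept 15 of the 16 members as higher than aorta and 16 of the 17 as higher than muscle, and the call lost was that of Col16a1 both times. A gene was called dim in a group where its mean lay below 5.83 log2 units, the lowest of the 19 array medians over all genes. By that rule 25 members were dim in no group, 6 in some groups and 13 in all 4 groups, and differences of dim genes are limited by weak signal.

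**Figure D1:**
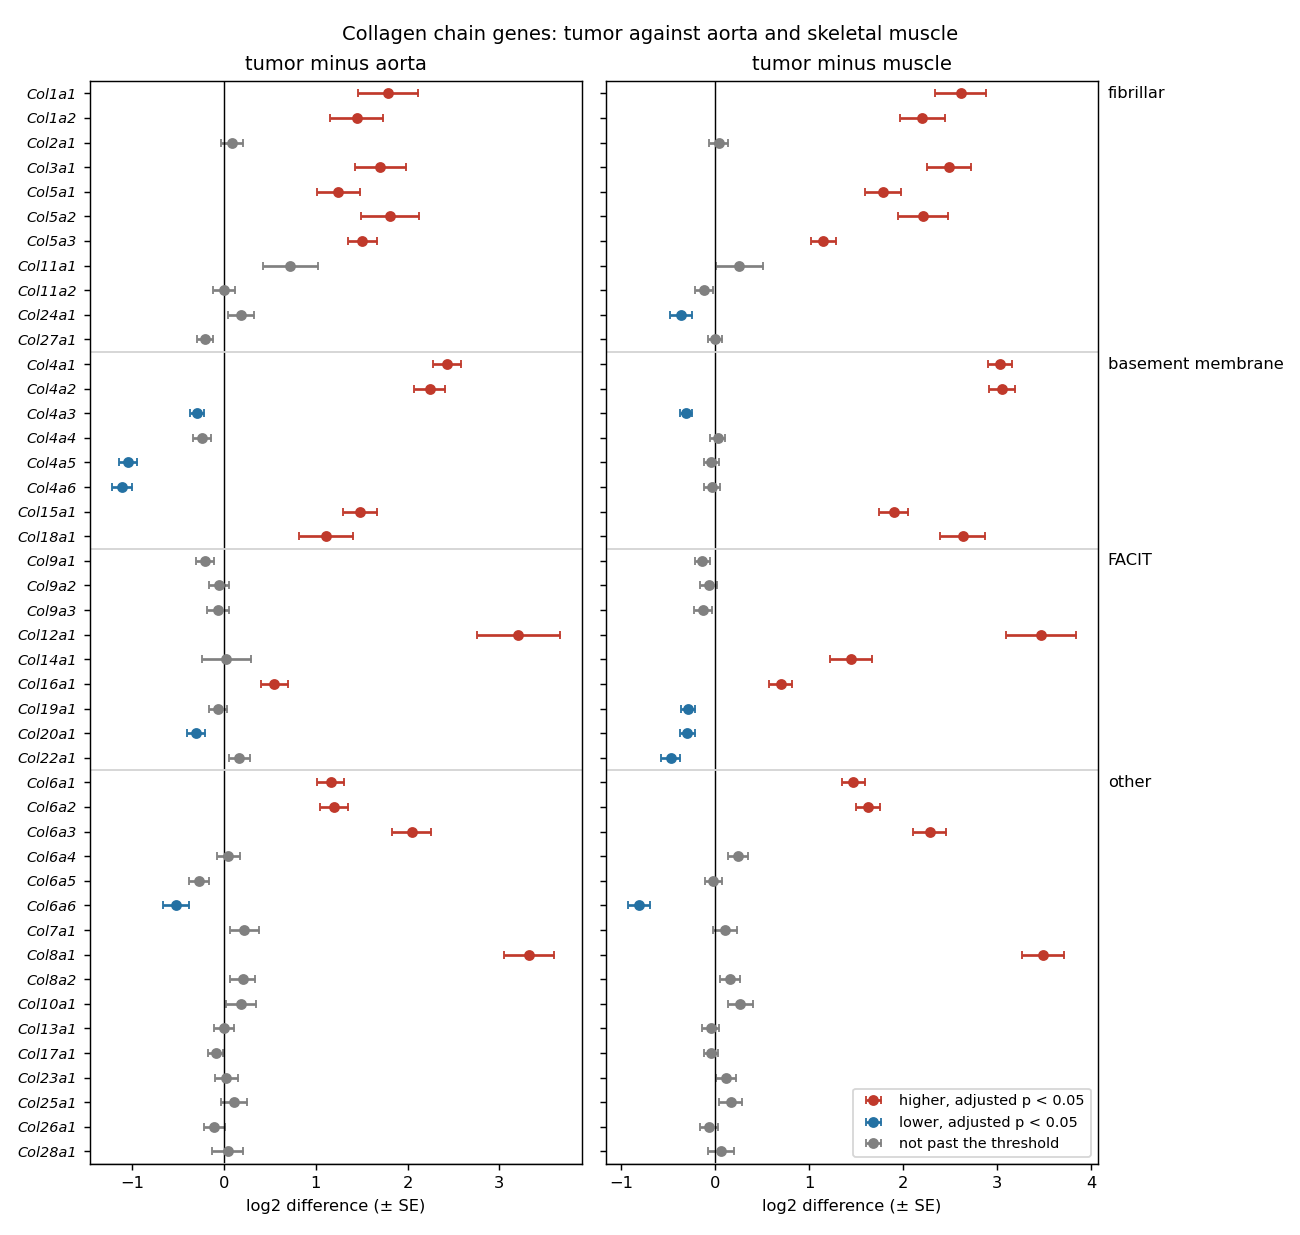
Log2 difference (x axis, with its standard error) of each of the 44 collagen genes (rows, by class) between tumors and aorta (left) and between tumors and the mean of both muscles (right). Red points passed the test as higher, blue as lower and grey did not pass. The largest differences are those of Col8a1 (3.33 and 3.49) and Col12a1 (3.21 and 3.47), and the lower chains lie closer to 0.

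Fibrillar chains of types I, III and V were higher in tumors than in aorta and muscle, 6 of the 11 fibrillar genes in each comparison, with class medians of 1.25 and 1.15 log2 units. None of the 11 was lower than in aorta, and Col24a1 was lower than in muscle. Both chains of type I collagen, the most abundant collagen of connective tissue, were among the higher genes. In the tumors, Col1a1 ranged from 11.24 to 12.86 log2 units with a median of 11.90. Its aorta values were 10.59, 10.59, 10.43 and 9.33, its quadriceps values 10.29, 9.97, 9.09 and 9.34, and its sternocleidomastoid values 9.69, 9.46, 8.69 and 8.74. Every tumor lay above every normal sample, and aorta 4 lay below the other aortas. The tumor mean was 3.45-fold above that of aorta (log2 difference 1.79 ± 0.33 SE, limma adjusted p = 0.00022) and 6.12-fold above muscle (2.61 ± 0.27, adjusted p = 9.23e-08).

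Col1a2, the partner chain of type I collagen, ranged from 10.23 to 11.94 in tumors with a median of 10.77. The aortas measured 9.75, 9.74, 9.67 and 9.01, the quadriceps muscles 9.38, 9.04, 8.49 and 8.76, and the sternocleidomastoid muscles 9.01, 8.70, 8.21 and 8.65. Tumors did not overlap with either tissue, and differed from aorta by 1.45 ± 0.29 (2.72-fold, limma adjusted p = 0.000488) and from muscle by 2.21 ± 0.24 (4.62-fold, adjusted p = 1.53e-07). By a second, dimmer probe set of Col1a2 the tumors were higher by 1.10 (adjusted p = 0.00294) than the aortas and by 1.42 (adjusted p = 2.03e-05) than the muscles.

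Col3a1, the chain of type III collagen that is co-distributed with type I in vessels and loose stroma, ranged from 10.15 to 11.84 in tumors with a median of 10.85. Aorta values were 9.72, 9.60, 9.44 and 8.63, quadriceps values 8.65, 8.38, 8.19 and 8.83, and sternocleidomastoid values 9.16, 8.66, 8.20 and 8.41. Again no normal sample reached the lowest tumor. The gene was 3.26-fold higher than in aorta (1.70 ± 0.28, limma adjusted p = 7.64e-05) and 5.63-fold higher than in muscle (2.49 ± 0.23, adjusted p = 2.21e-08).

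Type V collagen starts fibrils and limits their width, and all 3 of its chains were higher in tumors. Col5a2 ran from 7.68 to 9.77 with a median of 8.35 in tumors, and measured 7.06, 6.99, 6.88 and 6.53 in aortas, 6.57, 6.41, 6.27 and 6.53 in quadriceps, and 6.70, 6.58, 6.35 and 6.26 in sternocleidomastoid. It was 3.50-fold higher than in aorta (1.81 ± 0.32, limma adjusted p = 0.000155) and 4.64-fold higher than in muscle (2.21 ± 0.26, adjusted p = 6.3e-07), with no overlap between tumors and normal tissue.

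Col5a1 ran from 8.29 to 9.77 with a median of 8.61 in tumors, against 7.86, 7.66, 7.78 and 7.19 in aortas, 7.17, 7.14, 6.97 and 7.08 in quadriceps, and 7.45, 7.09, 6.79 and 6.98 in sternocleidomastoid. All tumors were above all normal samples, by 1.25 ± 0.24 against aorta (limma adjusted p = 0.000325) and 1.79 ± 0.20 against muscle (adjusted p = 2.06e-07). A dimmer second probe set of Col5a1 differed by 0.24 from aorta and missed the threshold (adjusted p = 0.101), and by 0.28 from muscle (adjusted p = 0.0144), so the size of this change depends on the probe set. Col5a3, the least widely expressed type V chain, differed by 1.51 ± 0.16 from aorta (limma adjusted p = 5.36e-07) and by 1.15 ± 0.13 from muscle (adjusted p = 3.81e-07). Its tumor values of 7.77 to 8.82 lay above the 6.50 to 6.68 of the aortas and the 6.74 to 7.29 of the muscles.

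Of the other 5 fibrillar chains, none differed between tumors and aorta at the threshold. Col2a1 and the type XI chains Col11a1 and Col11a2 are known from cartilage, where they form its fibrils. Col2a1 had means of 6.47 in tumors, 6.39 in aorta, 6.52 in quadriceps and 6.34 in sternocleidomastoid, and passed no test. Col11a1 was dim in every group, with means from 4.49 in aorta to 5.22 in tumors. Tumor 2 stood at 6.80 and the tumor median was 4.86, and its difference from aorta (0.72 ± 0.30, limma adjusted p = 0.0686) became 0.46 without tumor 2 (adjusted p = 0.0498) and 0.80 without tumor 6 (adjusted p = 0.0472). Of 10 cartilage markers, 8 were dim in tumors and in sternocleidomastoid and 7 in aorta and quadriceps, Acan, Matn1 and Hapln1 among them in each group. Col11a2 had means of 5.74 in tumors and aorta, and Col27a1 of 7.26 in tumors and 7.46 in aorta, and neither differed between tumors and normal tissue at the threshold. Without aorta 2, Col27a1 passed as lower than aorta (-0.29, limma adjusted p = 0.0149).

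Col24a1, a minor fibrillar chain, was lower in tumors than in muscle. It measured 6.19, 6.02, 6.06 and 5.72 in quadriceps and 5.85, 5.80, 5.90 and 5.58 in sternocleidomastoid, against 5.25 to 6.19 with a median of 5.48 in tumors and 5.41, 5.31, 5.34 and 5.29 in aortas. Tumor 7 held the highest tumor value and reached the muscles. The difference from muscle was -0.36 ± 0.12 (limma adjusted p = 0.0129), and it was not past the threshold against sternocleidomastoid alone (-0.25, adjusted p = 0.151).

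Sequence upstream of the start site is shown for Col1a2 and Col3a1 because both rose with the other stromal chains and their upstream sequences hold different motifs. RefSeq's promoter table (build GRCm38.p6) held 35 of the 44 members, with 38 start sites. The 250 bases before the start of Col1a2 (chr6:4505368-4505617, plus strand) and of Col3a1 (chr1:45311288-45311537, plus strand) read as follows, with each CCAAT box, each GC box (GGGCGG) and each TATA box (TATAAA) in capitals.
Col1a2: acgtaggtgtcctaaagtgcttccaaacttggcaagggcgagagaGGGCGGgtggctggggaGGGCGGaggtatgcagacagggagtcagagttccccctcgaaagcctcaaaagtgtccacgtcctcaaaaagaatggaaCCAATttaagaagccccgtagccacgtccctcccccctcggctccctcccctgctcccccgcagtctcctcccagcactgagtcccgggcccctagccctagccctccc
Col3a1: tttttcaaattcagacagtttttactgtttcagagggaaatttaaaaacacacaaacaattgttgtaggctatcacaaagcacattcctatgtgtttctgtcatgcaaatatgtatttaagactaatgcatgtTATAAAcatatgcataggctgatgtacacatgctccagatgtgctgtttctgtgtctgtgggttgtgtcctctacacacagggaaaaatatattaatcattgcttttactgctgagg
In Col1a2 the capitals mark a CCAAT box 109 bases and GGGCGG boxes 205 and 188 bases before the start, and in Col3a1 a TATAAA box 117 bases before it. Searched on both strands in the same 250 bases, GGGCGG occurred in 57.9% of the 38 member windows and in 32.7% of all 32851 windows. In the 15 windows of the members higher in tumors, which cover 13 of those genes, the share was 60%. CCAAT occurred in 34.2% of member windows and 33.8% of all, TATAAA in 13.2% and 12.4%, and the AP-1 motif TGANTCA in 2.63% and 6.75%. These matches describe letters in the window and not bound sites.

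**Figure D2:**
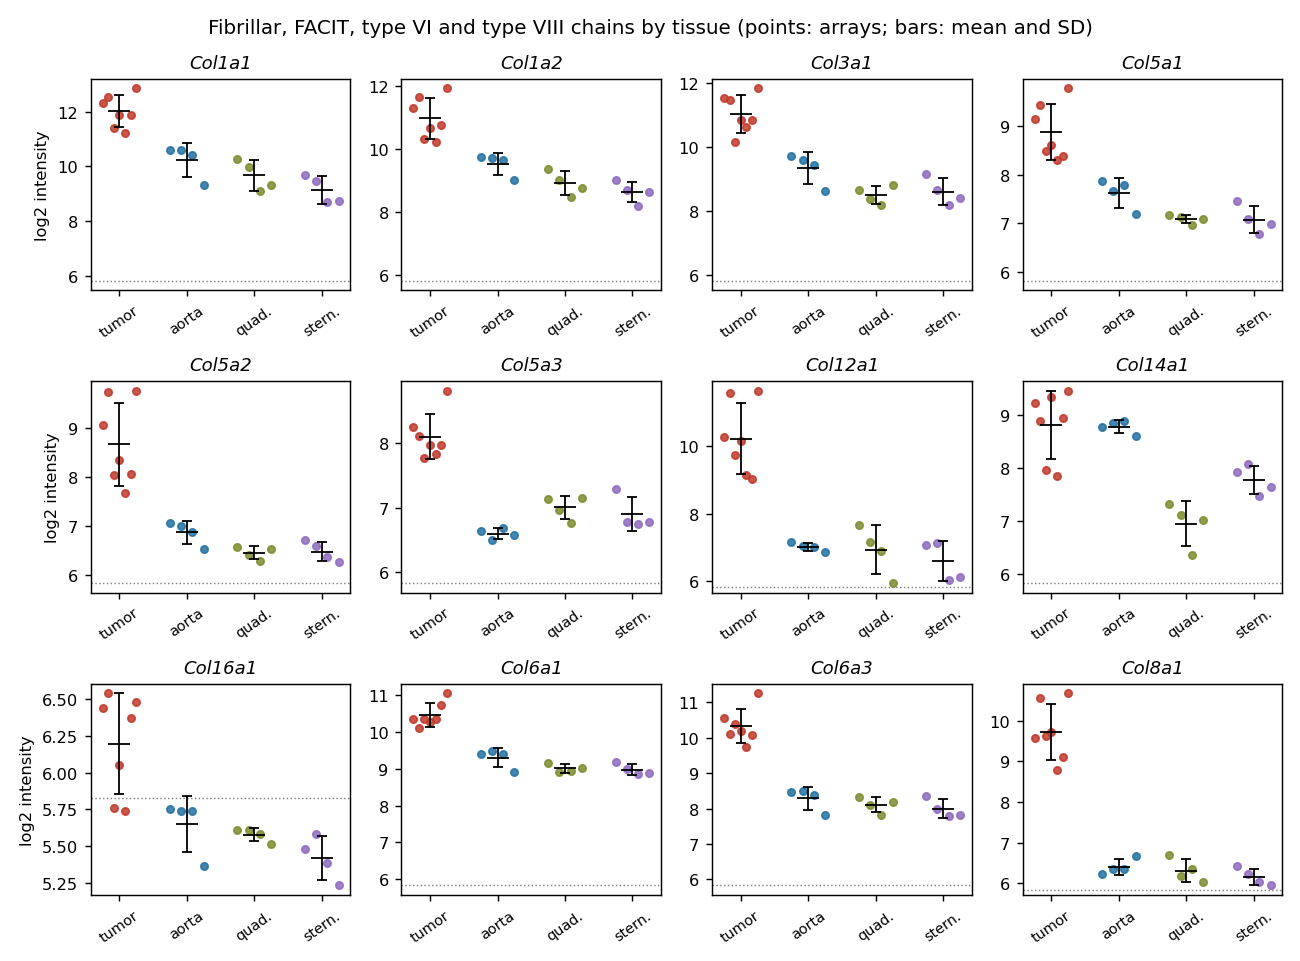
Log2 intensity (y axis, a separate scale for each panel) of 12 collagen genes of fibrillar, FACIT and other classes in tumors, aorta, quadriceps and sternocleidomastoid (x axis). Points are arrays, bars show the mean and SD, and the dotted line marks 5.83, below which a group mean is called dim. Tumors lie above all normal samples for Col1a1, Col3a1, Col12a1 and Col8a1, and overlap with aorta for Col14a1.

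In the basement membrane class 4 of 8 chains were higher in tumors in each comparison, and 3 were lower than in aorta and 1 lower than in muscle. The class medians were 0.44 and 0.96 log2 units. The ubiquitous type IV chains Col4a1 and Col4a2, which join in the common form of the basement membrane network, were the higher ones, while the tissue-restricted chains Col4a3, Col4a5 and Col4a6 were lower than in aorta.

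Col4a1 ranged from 10.01 to 10.75 with a median of 10.30 in tumors. In aortas it measured 8.06, 7.85, 7.92 and 7.62, in quadriceps 7.51, 7.33, 6.95 and 7.40, and in sternocleidomastoid 7.60, 7.40, 6.94 and 6.97. The lowest tumor lay 1.95 log2 units above the highest aorta. The tumor mean was 5.40-fold above aorta (2.43 ± 0.15, limma adjusted p = 1.18e-09) and 8.18-fold above muscle (3.03 ± 0.13, adjusted p = 3.49e-13).

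Col4a2 ranged from 9.94 to 10.96 with a median of 10.17 in tumors, and stood at 8.23, 8.10, 8.16 and 7.72 in aortas, 7.44, 7.37, 7.13 and 7.42 in quadriceps, and 7.51, 7.26, 6.88 and 6.93 in sternocleidomastoid. It was 4.72-fold higher than in aorta (2.24 ± 0.17, limma adjusted p = 9.25e-09) and 8.29-fold higher than in muscle (3.05 ± 0.14, adjusted p = 1.21e-12). For both chains tumor 3 was the highest tumor and tumor 4 the lowest. Of 10 pericyte markers, which mark the mural cells that share a basement membrane with endothelium, 4 were higher and 1 lower in tumors than in aorta, and the list mean was 8.14 to 9.43 in tumors with its highest value in tumor 3, 7.98 to 8.19 in aortas, and 7.57 to 7.73 in muscles; Higd1b was dim in all groups. The endothelial list mean was also highest in tumor 3. Tumor 4, the lowest for both chains, deviated from the tumor mean by 0.09 on the endothelial list and by -0.15 on the pericyte list. The lowest tumor was tumor 7 for the endothelial list (-0.52) and tumor 2 for the pericyte list (-0.55). The part of endothelial and pericyte content in the type IV differences was not tested.

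The genes of these 2 chains lie head to head on chromosome 8 and their RefSeq start sites are 21 bases apart, each gene starting inside the span of the other, so the stretch between the starts is shown (chr8:11312801-11312830, GRCm38.p6, plus strand), with the 22 bases from start to start in capitals.
Col4a1 and Col4a2 starts: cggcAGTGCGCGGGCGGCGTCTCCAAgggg
Col4a6 and Col4a5, also head to head, have start sites 1343 bases apart on chromosome X. Both members of each pair moved in the same direction against aorta, the Col4a1 pair up and the Col4a5 pair down.

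Col4a5 and Col4a6, whose chains form basement membranes of smooth muscle and some epithelia, were highest in the aortas. Col4a5 measured 6.62, 6.58, 6.69 and 6.37 in aortas, against 5.3 to 5.85 with a median of 5.46 in tumors, 5.57, 5.69, 5.67 and 5.81 in quadriceps, and 5.42, 5.44, 5.46 and 5.38 in sternocleidomastoid. Col4a6 measured 6.55, 6.79, 6.88 and 6.33 in aortas, against 5.38 to 5.78 with a median of 5.53 in tumors, 5.74, 5.54, 5.75 and 5.69 in quadriceps, and 5.63, 5.38, 5.5 and 5.25 in sternocleidomastoid. Aortas did not overlap with any other group for either gene, and the means of tumors and of both muscles were dim. Tumors were below aorta by 1.05 ± 0.10 for Col4a5 (2.06-fold, limma adjusted p = 1.37e-07) and by 1.11 ± 0.11 for Col4a6 (2.16-fold, adjusted p = 1.58e-07). Against muscle the differences were -0.04 and -0.03 and missed the threshold (adjusted p = 0.727 and 0.779). Of 10 smooth muscle markers, 7 were lower and 0 higher in tumors than in aorta, while 7 were higher and 2 lower in tumors than in muscle, where Col4a5 and Col4a6 passed no test. The list mean was 9.93 to 10.34 in aortas, 8.26 to 9.22 in tumors and 7.52 to 7.68 in muscles. In quadriceps Cnn1, Myocd, Actg2 and Itga8 of that list were dim, and in sternocleidomastoid Myocd and Itga8. The part of smooth muscle content in the Col4a5 and Col4a6 levels was not tested.

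Col4a3 and Col4a4, chains of specialised basement membranes such as that of the kidney filter, were dim in all groups. Col4a3 was lower in tumors, with values from 5.10 to 5.32, than in aorta (-0.30 ± 0.08, limma adjusted p = 0.00511) and muscle (-0.31 ± 0.06, adjusted p = 0.000387), where samples ran from 5.42 to 5.69. Col4a4 had means of 5.23 in tumors and 5.47 in aortas, and its difference of -0.24 ± 0.10 missed the threshold (adjusted p = 0.0571). It passed without sternocleidomastoid 3 or 4 (-0.24, adjusted p = 0.0239 and 0.0293), which alter only the shared variance estimate.

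Col15a1, a proteoglycan-type collagen that links basement membrane to the stroma beneath it, ranged from 8.10 to 9.24 with a median of 9.02 in tumors. Aortas measured 7.5, 7.59, 7.15 and 7.02, quadriceps 7.09, 7.0, 6.61 and 6.79, and sternocleidomastoid 6.92, 7.08, 6.82 and 6.86, all below the lowest tumor. It was 2.79-fold above aorta (1.48 ± 0.19, limma adjusted p = 3.91e-06) and 3.74-fold above muscle (1.90 ± 0.15, adjusted p = 3.13e-09).

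Col18a1, whose C-terminal fragment is endostatin, varied more among tumors, from 7.61 in tumor 5 to 9.63 in tumor 4 with a median of 9.23. The aortas measured 7.79, 8.16, 7.79 and 7.49, quadriceps 6.11, 6.64, 6.30 and 6.20, and sternocleidomastoid 6.27, 6.50, 6.37 and 5.90. Tumor 5 lay within the aorta range and tumor 6 at its upper edge, and all tumors lay above all muscles. The gene was 2.16-fold higher than in aorta (1.11 ± 0.30, limma adjusted p = 0.00553) and 6.21-fold higher than in muscle (2.63 ± 0.24, adjusted p = 2.07e-08). With tumors 5 to 7 alone, whose title codes follow those of the normal tissues, the difference from aorta was 0.53 and missed the threshold (adjusted p = 0.2).

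**Figure D3:**
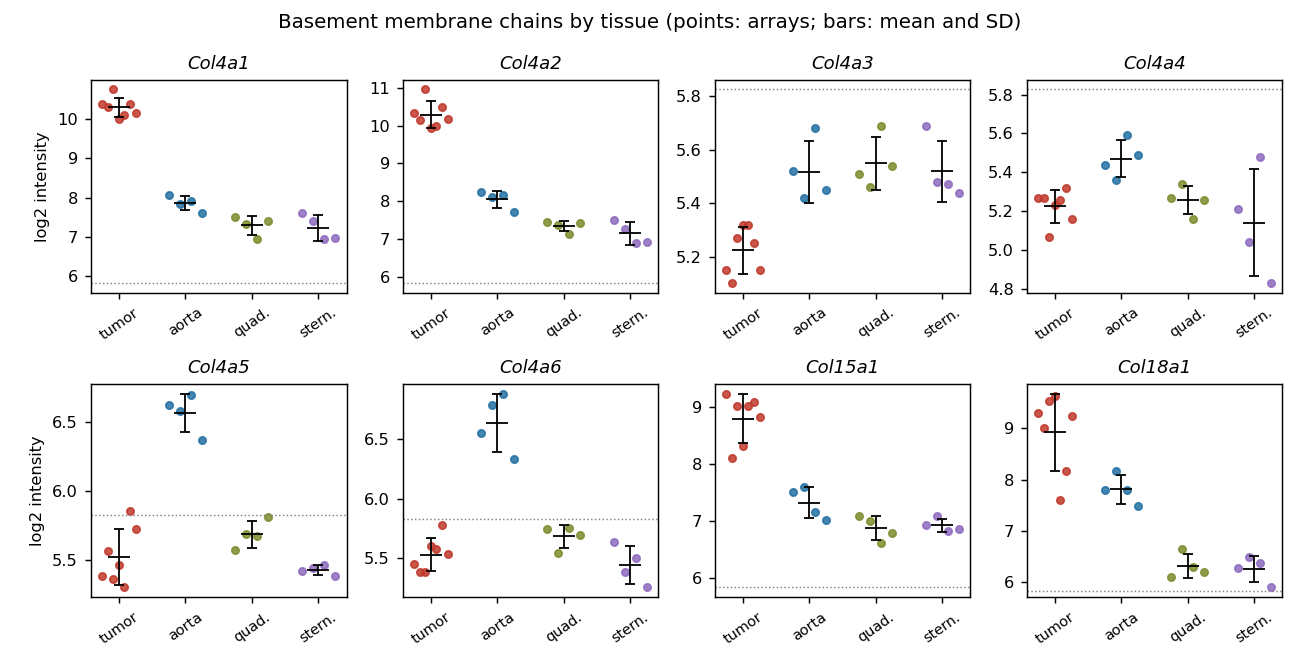
Log2 intensity (y axis, a separate scale for each panel) of the 8 basement membrane chains in the 4 groups (x axis). Points are arrays, bars show the mean and SD, and the dotted line marks 5.83, below which a group mean is called dim. Col4a1, Col4a2 and Col15a1 separate tumors from the rest, Col4a5 and Col4a6 separate the aortas, and Col4a3 and Col4a4 stay below the line.

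Among the 9 FACIT chains, Col12a1 and Col16a1 were higher in tumors than in both tissues, Col14a1 passed as higher against muscle and not against aorta, and Col19a1, Col20a1 and Col22a1 were lower than in muscle. Col12a1 lies on type I fibrils in dense connective tissue. In tumors it ran from 9.03 to 11.65 with a median of 10.17, the widest tumor range of the 16 higher genes (SD 1.05). Aortas measured 7.17, 7.04, 7.02 and 6.86, quadriceps 7.68, 7.18, 6.91 and 5.95, and sternocleidomastoid 7.08, 7.13, 6.05 and 6.13. Even the lowest tumor lay 1.86 log2 units above the highest aorta. The tumor mean was 9.23-fold above aorta (3.21 ± 0.45, limma adjusted p = 1.25e-05) and 11.1-fold above muscle (3.47 ± 0.37, adjusted p = 1.45e-07).

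Col14a1, a FACIT chain close to Col12a1 in structure, did not follow it. Tumors ran from 7.85 to 9.46 with a median of 8.94, and the aortas measured 8.77, 8.86, 8.90 and 8.61, inside that range. Quadriceps samples were at 7.32, 7.12, 6.35 and 7.01 and sternocleidomastoid samples at 7.93, 8.07, 7.48 and 7.65. The tumor minus aorta difference was 0.03 ± 0.27 (limma adjusted p = 0.954), whereas tumors exceeded muscle 2.73-fold (1.45 ± 0.22, adjusted p = 1.64e-05) and overlapped with sternocleidomastoid.

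Col16a1 was a dim gene outside the tumors. It ranged from 5.74 to 6.54 with a median of 6.37 in tumors, and measured 5.75, 5.74, 5.74 and 5.36 in aortas, 5.61, 5.61, 5.58 and 5.51 in quadriceps, and 5.48, 5.58, 5.38 and 5.23 in sternocleidomastoid. Tumor 5 was level with the highest aorta. Differences were 0.55 ± 0.15 from aorta (limma adjusted p = 0.00596) and 0.70 ± 0.12 from muscle (adjusted p = 6.29e-05), and both calls were lost when arrays were centred on housekeeping genes (0.22, adjusted p = 0.222, and 0.11, adjusted p = 0.455).

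Col22a1, a FACIT chain of the junction between muscle and tendon, was highest in quadriceps. It measured 6.49, 6.58, 6.44 and 5.84 there, 5.88, 5.73, 6.09 and 6.09 in sternocleidomastoid, 5.63, 5.35, 5.54 and 5.48 in aortas, and 5.55 to 5.80 with a median of 5.66 in tumors. Quadriceps 4 stood below the other quadriceps samples and within the range of the sternocleidomastoid. The gene was lower than muscle by 0.47 ± 0.10 in tumors (limma adjusted p = 0.000409) and by 0.64 ± 0.12 in aorta (adjusted p = 0.000216). Tumors against sternocleidomastoid alone differed by -0.28 (adjusted p = 0.0657). Of 10 tendon markers 7 were lower and 1 higher in tumors than in muscle. Their list mean was 7.63, 7.22, 6.81 and 6.02 in quadriceps 1 to 4, 5.94 to 6.46 in sternocleidomastoid, 5.45 to 6.55 in tumors and 5.47 to 5.72 in aortas, and quadriceps 4 was the lowest quadriceps sample here too. Tnmd, the defining tendon gene of the list, was dim in every group but quadriceps. Quadriceps 4 also stood apart from the other quadriceps samples on further lists. Its adipocyte list mean was 10.5, against 8.57 to 8.78 in the others. Its brown adipocyte list mean was 8.36, against 7.06 to 7.15. Among the quadriceps samples its macrophage list mean (7.42) was the highest and its skeletal muscle list mean (11.48) the lowest. The part of tendon, adipocyte, macrophage or skeletal muscle content in the Col22a1 and Col24a1 levels was not tested.

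The remaining FACIT chains differed little. Col20a1 was lower in tumors, with values from 5.77 to 6.02, than in aorta (-0.31 ± 0.10, limma adjusted p = 0.016) and muscle (-0.30 ± 0.08, adjusted p = 0.00368). Leaving out aorta 3 ended the first of these calls (-0.25, adjusted p = 0.0706), and taking sternocleidomastoid as the only muscle ended the other (-0.21, adjusted p = 0.0784). Col19a1, dim in all groups, was lower than in muscle (-0.29 ± 0.08, limma adjusted p = 0.00486). The cartilage chains Col9a1, Col9a2 and Col9a3 had tumor means of 5.01, 7.08 and 5.46 and aorta means of 5.21, 7.13 and 5.53, and passed neither tumor comparison. Col9a1 passed as lower than aorta without aorta 4 (-0.28, limma adjusted p = 0.0456). With median centring it passed as lower than muscle (-0.19, limma adjusted p = 0.0401).

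Of the 16 other chains, Col8a1 and the main collagen VI chains Col6a1, Col6a2 and Col6a3 were higher in tumors than in both tissues and Col6a6 was lower. Col8a1 changed most of all 44 members in both tumor comparisons. It ranged from 8.80 to 10.68 with a median of 9.62 in tumors. Aortas were at 6.22, 6.35, 6.35 and 6.67, quadriceps at 6.69, 6.18, 6.34 and 6.02, and sternocleidomastoid at 6.42, 6.22, 6.02 and 5.96. The lowest tumor lay 2.13 log2 units above the highest aorta, and the aortas overlapped with the muscles. The tumor mean was above aorta by 3.33 ± 0.27 log2 units (limma adjusted p = 2.39e-08) and 11.3-fold above muscle (3.49 ± 0.23, adjusted p = 1.36e-10). Its partner in the type VIII network, Col8a2, was dim in all groups, with means of 5.51 in tumors and 5.31 in aortas (0.20 ± 0.13, adjusted p = 0.258).

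The upstream sequence of Col8a1 is given as that of the most changed member. The 250 bases before its RefSeq start (chr16:57754738-57754987, GRCm38.p6, minus strand) read as follows, with GGGCGG and its complement CCGCCC in capitals.
Col8a1: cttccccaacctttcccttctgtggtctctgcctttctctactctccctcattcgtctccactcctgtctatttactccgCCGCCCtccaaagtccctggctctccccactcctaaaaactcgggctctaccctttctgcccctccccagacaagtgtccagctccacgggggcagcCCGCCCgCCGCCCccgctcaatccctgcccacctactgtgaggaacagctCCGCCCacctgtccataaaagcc
The capitals mark 4 GC boxes, 170, 73, 66 and 23 bases before the start. The CCAAT box, the TATA box and the AP-1 motif were not found in this window.

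Collagen VI needs 3 different chains, and the genes of the main chains rose together. Col6a3, the longest of them, ran from 9.74 to 11.26 with a median of 10.19 in tumors. In aortas it was 8.46, 8.49, 8.39 and 7.81, in quadriceps 8.32, 8.10, 7.81 and 8.20, and in sternocleidomastoid 8.37, 8.0, 7.79 and 7.82. No normal sample reached the tumors, which were 4.13-fold above aorta (2.05 ± 0.22, limma adjusted p = 4.75e-07) and 4.87-fold above muscle (2.28 ± 0.18, adjusted p = 1.83e-09).

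Col6a1 ran from 10.11 to 11.05 with a median of 10.35 in tumors, against 9.40, 9.47, 9.40 and 8.92 in aortas, 9.16, 8.91, 8.93 and 9.03 in quadriceps, and 9.17, 8.98, 8.85 and 8.89 in sternocleidomastoid. Col6a2, its neighbour on the chromosome, ran from 9.02 to 9.90 with a median of 9.24 in tumors, against 8.32, 8.30, 8.27 and 7.86 in aortas, 8.02, 7.63, 7.57 and 7.75 in quadriceps, and 7.95, 7.85, 7.60 and 7.72 in sternocleidomastoid. For both genes all tumors were above all normal samples. Differences from aorta were 1.16 ± 0.15 for Col6a1 (limma adjusted p = 4.38e-06) and 1.20 ± 0.16 for Col6a2 (adjusted p = 5.39e-06), and differences from muscle were 1.47 ± 0.12 (adjusted p = 4.58e-09) and 1.62 ± 0.13 (adjusted p = 2.17e-09). The second probe set of Col6a1 gave 1.19 and 1.25.

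The later described collagen VI chains Col6a4, Col6a5 and Col6a6, which are adjacent genes, passed no tumor comparison as higher. Col6a6 ranged from 5.26 to 6.26 with a median of 5.89 in tumors, and measured 6.29, 6.34, 6.41 and 6.42 in aortas, 6.87, 6.83, 7.01 and 6.85 in quadriceps, and 6.25, 6.29, 6.63 and 6.46 in sternocleidomastoid. Tumors lay below all aortas and all quadriceps samples and touched the lowest sternocleidomastoid. The gene was lower by 0.52 ± 0.14 than in aorta (1.44-fold, limma adjusted p = 0.00614) and by 0.81 ± 0.12 than in muscle (1.75-fold, adjusted p = 6.92e-06), and with tumors 5 to 7 alone it missed the threshold against aorta (-0.36, adjusted p = 0.0596). Col6a4 and Col6a5 were dim in all groups, with tumor means of 5.36 and 5.06. Without tumor 6, Col6a5 passed as lower than aorta (-0.32, limma adjusted p = 0.0216). Col6a4 was 0.24 above muscle (adjusted p = 0.0594) and passed with quantile normalization (0.25, adjusted p = 0.0381) and without tumor 5, aorta 3, quadriceps 1, quadriceps 2 or sternocleidomastoid 1 (0.24 to 0.29, adjusted p = 0.0249 to 0.0420), while housekeeping centring turned it to -0.35.

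Another 9 chains of this class, Col8a2 among them, passed no tumor comparison. Col7a1, the anchoring fibril chain of skin, had means of 6.23 in tumors and 6.01 in aortas, with tumor 7 at 7.03. Col10a1, of growth plate cartilage, had means of 5.40 and 5.21 and was dim in all groups. Against muscle it passed without tumor 2 (0.34, limma adjusted p = 0.0355) and without sternocleidomastoid 1 (0.33, adjusted p = 0.0468). It also passed with tumors 5 to 7 alone (0.32, adjusted p = 0.0438), while housekeeping centring turned it to -0.33. The transmembrane chains Col13a1, Col17a1, Col23a1 and Col25a1 had tumor means of 6.08, 5.49, 6.27 and 5.3 and aorta means of 6.08, 5.58, 6.25 and 5.19. Col26a1 stood at 6.52 and 6.63, and Col28a1 at 4.55 and 4.51. Over these genes the differences ran from -0.11 (Col26a1 against aorta) to 0.27 (Col10a1 against muscle).

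The spread among tumors differed from chain to chain. Over the 16 genes higher than aorta, the SD of the 7 tumors was smallest for Col4a1 (0.25) and largest for Col12a1 (1.05), with Col4a2 (0.35) among the collagen VI chains Col6a1 (0.32), Col6a2 (0.33) and Col6a3 (0.48). Tumor 7 was the highest tumor for 11 of the 16: Col1a1, Col1a2, Col3a1, Col5a1, Col5a2, Col5a3, Col6a1, Col6a2, Col6a3, Col8a1 and Col12a1. Tumor 5 was the lowest for 8 of them, including Col1a1, Col8a1 and Col18a1. Col12a1 stood 1.42 above its tumor mean in tumor 7 and 1.35 above it in tumor 2, and 1.07 and 1.20 below it in tumors 5 and 6. The fibroblast marker list had its highest tumor mean in tumor 7 (9.23) and its lowest in tumor 5 (8.30), but stood at 8.60 in tumor 2, below the tumor mean of the list. The macrophage list was highest in tumors 2 and 7 (9.38 and 9.29), against 8.43 to 8.77 in the other tumors. The skeletal muscle list was high in tumors 2 and 7 (10.01 and 9.13) and low in tumors 5 and 6 (5.21 and 5.55), while the adipocyte list was high in tumors 5 and 6 (11.09 and 10.44) and low in tumors 2 and 7 (6.89 and 6.96). The part of these cell types in the spread among tumors was not tested.

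**Figure D4:**
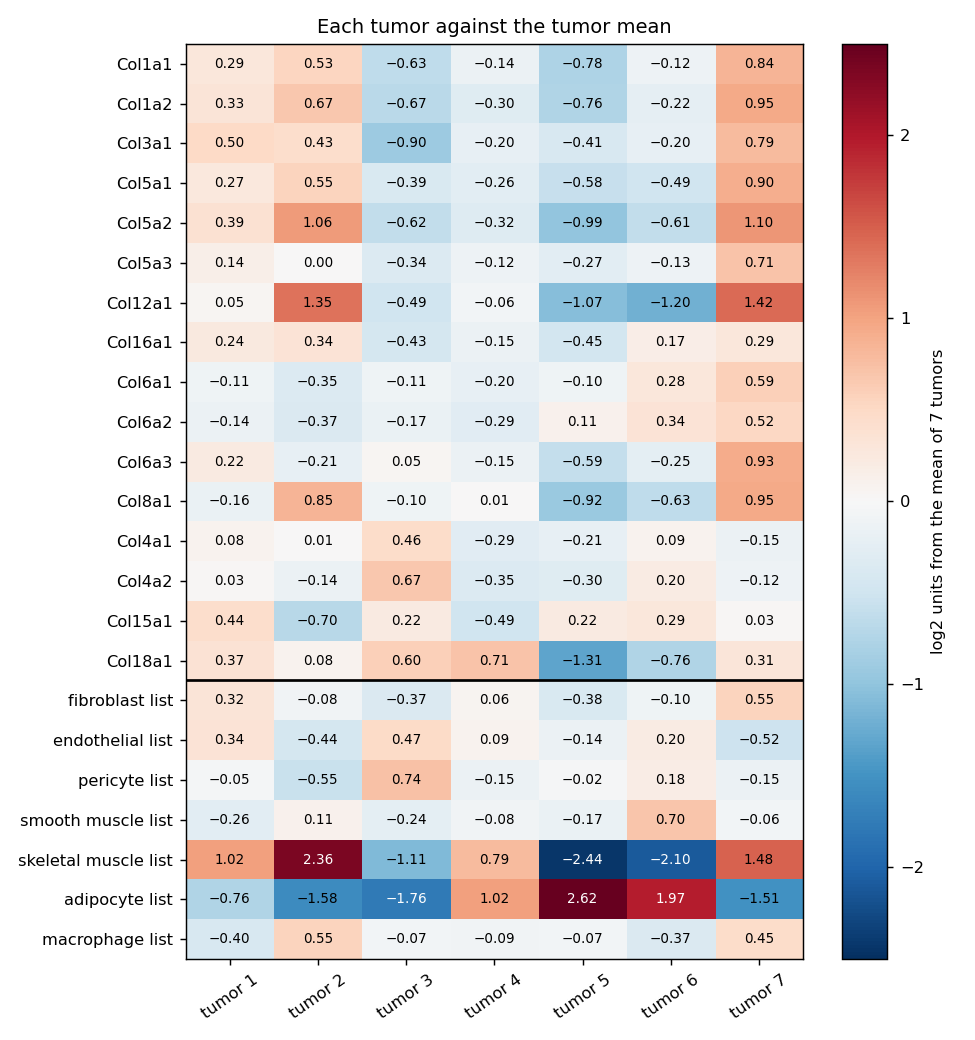
Deviation of each tumor (columns) from the mean of the 7 tumors, in log2 units (colour), for the 16 collagen genes higher than aorta and for 7 cell type marker lists (rows). Tumor 7 is above the mean for most stromal chains and tumor 5 below it, while Col4a1 and Col4a2 peak in tumor 3.

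Fibroblast markers were compared between the tissues as well. Of 10 such markers, 5 were higher and 2 lower in tumors than in aorta, and 5 higher and 1 lower than in muscle. Between aorta and muscle 3 were higher and 1 lower, with a median difference of 0.04. Over all genes, 18.6% were higher and 17.5% lower in tumors than in aorta, and 25.3% higher and 25.7% lower than in muscle. Between aorta and muscle these shares were 17% and 15.3%. The counts of the other marker lists stand beside the same shares. The list mean was 8.30 to 9.23 in tumors, 8.06 to 8.10 in aortas, 7.61 to 8.04 in quadriceps and 7.88 to 8.15 in sternocleidomastoid, with Tcf21 dim in all groups. The part of fibroblast content in the rise of Col1a1, Col3a1, Col5a2, Col6a3, Col8a1 and Col12a1 was not tested.

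Between the normal tissues, 10 collagen genes were higher in aorta than in muscle (17% of all genes) and 2 were lower (15.3% of all genes; 32.3% in either direction), by limma at the same threshold. Basement membrane chains made up 6 of the 10, and their class median was 0.71 log2 units. Col18a1 led them, 2.87-fold higher in aorta (1.52 ± 0.29, limma adjusted p = 0.000356), followed by Col4a6 (1.08 ± 0.10, adjusted p = 1.42e-07) and Col4a5 (1.01 ± 0.10, adjusted p = 1.32e-07). Aortas did not overlap with muscles for these 3 genes, nor for Col4a2 (0.81 ± 0.16) and Col4a1 (0.60 ± 0.15, adjusted p = 0.00381). Of the 44 members, 6 were higher in aorta without overlap, against 14.6% of all genes, and 3 were lower, against 12.6%. Among FACIT chains Col14a1 was 2.67-fold higher in aorta (1.42 ± 0.26, adjusted p = 0.000292) and Col22a1 lower, as given above with its values. Col24a1 was the other lower gene (-0.55 ± 0.14, adjusted p = 0.00383).

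The other aorta calls were weaker. Col3a1 (0.79 ± 0.27, limma adjusted p = 0.0331), Col1a2 (0.76 ± 0.28, adjusted p = 0.0432), Col6a2 (0.43 ± 0.15, adjusted p = 0.0372) and the dim Col4a4 (0.27 ± 0.09, adjusted p = 0.0336) passed. The second probe set of Col1a2 did not pass (0.31, adjusted p = 0.416), nor did the mean of both (0.54, adjusted p = 0.136). All 4 of these calls were lost without aorta 1, aorta 3, quadriceps 3 or sternocleidomastoid 4, which left 6 genes higher in aorta each time, and some of them without aorta 2 or 4, quadriceps 2 or 4, or sternocleidomastoid 2 or 3. Against quadriceps alone 6 genes were higher as well. Col1a1 differed by 0.83 ± 0.32 and missed the threshold (adjusted p = 0.055). It passed without aorta 4 (1.13, adjusted p = 0.0123), and also without quadriceps 1, sternocleidomastoid 1 or tumor 3, 5 or 7 (0.83 to 0.93, adjusted p = 0.0343 to 0.0494), with quantile normalization, with dim genes left out, with compared groups only and against sternocleidomastoid alone.

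No collagen gene passed between the muscles: 0 of 44 were higher and 0 lower in sternocleidomastoid than in quadriceps by limma, against 0.234% and 0.198% of all genes, and 0 passed with limma's trend and robust options. At an unadjusted p under 0.05 there were 4, namely Col14a1 (0.83 ± 0.30, adjusted p = 0.464), Col6a6 (-0.48 ± 0.16, adjusted p = 0.333), Col22a1 (-0.39 ± 0.13, adjusted p = 0.377) and Col4a5 (-0.26 ± 0.11, adjusted p = 0.609). The muscles did not overlap for Col14a1, higher in sternocleidomastoid (as were 4% of all genes without overlap), nor for Col6a6 and Col4a5, which were lower (3.6% of all genes). Without quadriceps 4, Col22a1 passed as lower in sternocleidomastoid (-0.56, adjusted p = 0.0155).

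Collagen chains are modified and folded in the endoplasmic reticulum before secretion, and 13 of 18 measured genes of this step were higher in tumors than in aorta and 0 lower (median 0.68), with 15 higher and 1 lower than in muscle (median 1.22). Over all genes, 18.6% were higher and 17.5% lower than in aorta, and 25.3% higher and 25.7% lower than in muscle, and the counts of this and the next 3 lists stand beside those shares. With arrays centred on housekeeping genes, 8 of the 18 were higher than in aorta. P4ha3, a catalytic subunit of the prolyl hydroxylase that stabilises the helix, was 5.15-fold higher than in aorta (2.36 ± 0.38, limma adjusted p = 6.11e-05), with a tumor mean of 7.04 ± 1.05 (SD, n = 7) and dim means of 4.64 to 4.68 in normal tissue. The shared subunit of that enzyme, P4hb, was 2.81-fold higher (1.49 ± 0.20, adjusted p = 6.35e-06). Colgalt1, which adds galactose to hydroxylysine, was 2.53-fold higher (1.34 ± 0.12, adjusted p = 6.3e-08). Against muscle, Plod2, a lysyl hydroxylase that directs crosslink type, was 6.84-fold higher (2.77 ± 0.30, adjusted p = 1.43e-07; dim in quadriceps at 5.79), and P4ha3 5.24-fold. Serpinh1, the collagen chaperone HSP47, was 4.45-fold higher (2.15 ± 0.12, adjusted p = 1.43e-11). Mia3, which helps load procollagen into transport carriers, was higher than in aorta (0.31, limma adjusted p = 0.0286) and lower than in muscle (-0.40, adjusted p = 0.000838).

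In the list of procollagen processing and crosslinking enzymes, 4 of 11 measured genes were higher and 1 lower than in aorta (median 0.36), and 6 higher and 1 lower than in muscle (median 0.64). Bmp1, the protease that removes the C-terminal propeptide, was 3.38-fold above aorta (1.76 ± 0.28, limma adjusted p = 6.18e-05) and 4.01-fold above muscle. Lox, which oxidises lysines for crosslinks, was 3.17-fold above aorta (1.66 ± 0.48, adjusted p = 0.0101) and 8.62-fold above muscle (adjusted p = 1.61e-06), and the related Loxl3 3.90-fold above muscle (adjusted p = 1.99e-05). Pcolce2, an enhancer of propeptide removal, was lower than in aorta (-1.44 ± 0.15, adjusted p = 5.56e-07). Without aorta 4, 2 genes of the list were higher than in aorta, and without tumor 7, 3 were lower than in muscle.

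Of 11 proteins that bind fibrils and shape their growth, 3 were higher and 3 lower in each tumor comparison (median -0.23 against aorta), shares near those of all genes against muscle. Aspn, a leucine-rich repeat protein that binds type I collagen, was 4.20-fold higher than in aorta (2.07 ± 0.24, limma adjusted p = 1.55e-06) and 4.85-fold higher than in muscle. Ogn and Prelp, of the same protein family, were lower than in aorta (-1.57 ± 0.20 and -1.34 ± 0.29, adjusted p = 4.83e-06 and 0.000944). Bgn, biglycan, was 5.52-fold higher than in muscle (2.46 ± 0.10, adjusted p = 1.87e-13), and Kera, keratocan, was lower (-2.87 ± 0.34, adjusted p = 5.55e-07) with a dim tumor mean of 4.53. Kera and Fmod, which was also lower than in muscle (-1.19), belong to the tendon marker list as well.

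Collagen receptors were higher in 6 of 9 cases than in aorta (median 0.89) and in 7 of 9 than in muscle (median 1.54), with 0 lower in either comparison; without tumor 6, 1 was lower than in muscle. Itga2, the alpha subunit of a collagen-binding integrin, was 5.04-fold above aorta (2.33 ± 0.40, limma adjusted p = 0.000126) and 5.05-fold above muscle, with a dim mean of 5.73 in sternocleidomastoid. Gp6, the collagen receptor of platelets, was 3.71-fold above aorta (1.89 ± 0.56, adjusted p = 0.0117) with a tumor mean of 7.16 ± 1.48 (SD, n = 7) and a dim aorta mean of 5.26. Lair1, an inhibitory collagen receptor of leukocytes, was 2.37-fold above aorta (1.24 ± 0.17, adjusted p = 1.25e-05) and 3.49-fold above muscle, with dim means of 5.80 in aorta, 5.10 in quadriceps and 5.39 in sternocleidomastoid that limit these folds, and 9 of 10 macrophage markers were higher in tumors than in aorta with a list mean of 8.43 to 9.38 against 7.02 to 7.35. The part of macrophage content in the Lair1 level was not tested. Between the muscles 0 genes of these 4 lists passed.

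**Figure D5:**
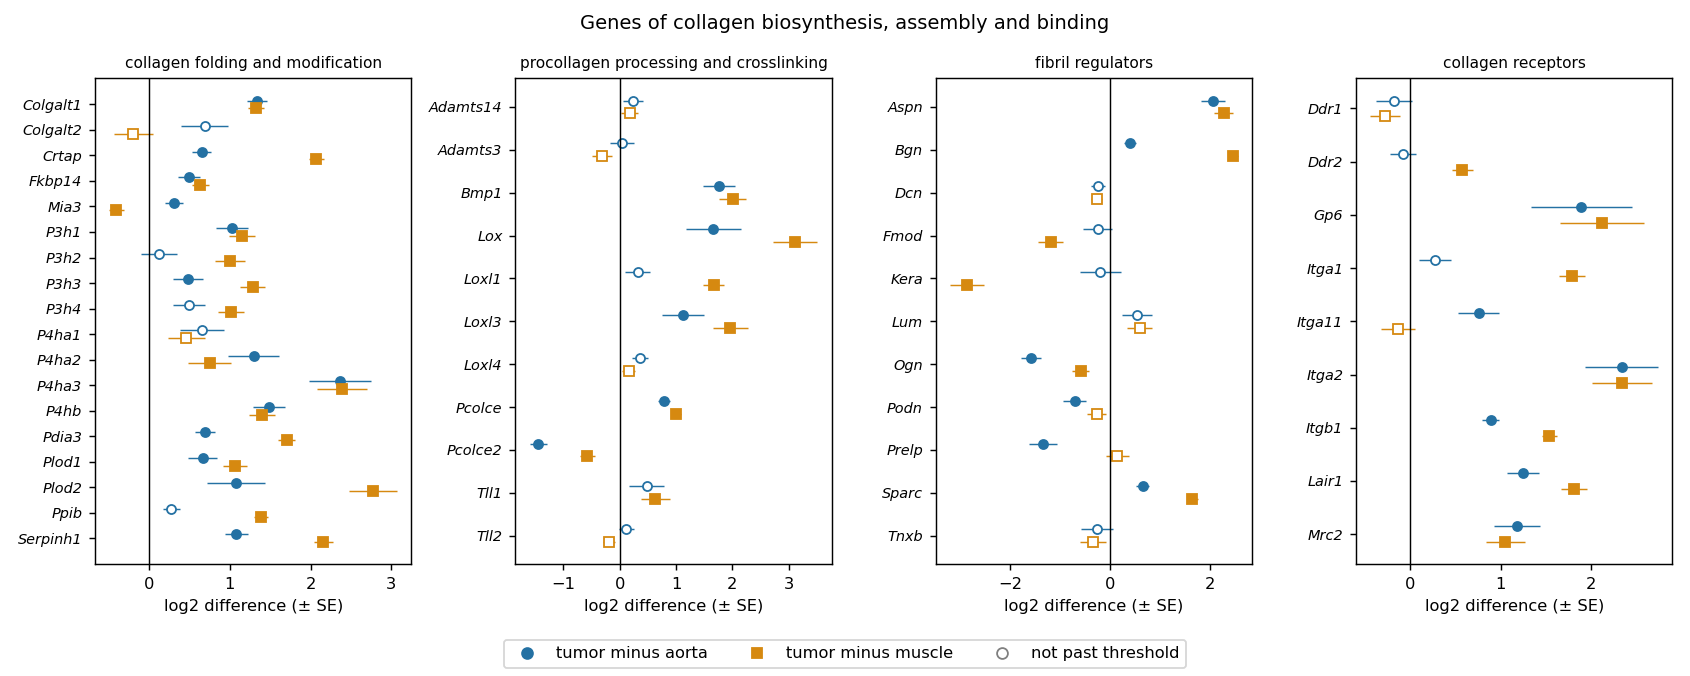
Log2 difference (x axis, with its standard error) of the genes of collagen folding, processing, fibril regulation and collagen binding (rows) between tumors and aorta and between tumors and muscle. Blue circles are tumor minus aorta, orange squares tumor minus muscle, and open symbols did not pass the test. Folding enzymes and receptors lie mostly to the right of 0, while fibril regulators fall on both sides, from Aspn (2.07) to Ogn (-1.57) against aorta.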

How the data were processed

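RNA of whole tissue was extracted with Qiagen miRNeasy, checked on a Bioanalyser and hybridised as biotin-labelled cRNA to Affymetrix mouse arrays, per the labels' protocols. The authors deposited 1 table of log2 values for 41345 probe sets on 19 arrays; the scale was read from the values (1.59 to 13.8), Partek 6.6 is named in the submitters' processing notes, and no source used here states the background correction or normalization. Array medians over all genes lay between 5.83 and 5.94, and no further normalization was applied.

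Probe sets were named from the platform annotation: 23521 carried 1 gene symbol, 1814 several and 16010 none. The brightest single-symbol probe set stood for each of 22180 genes. Group means of the 4 tissues were fitted over all 19 arrays with limma 3.58.1 in R 4.3.3 (lmFit and eBayes, two-sided), p-values were adjusted over all genes by Benjamini and Hochberg, and 0.05 was the threshold. Muscle is the mean of both muscle group means. The comparisons share arrays, so they are not independent. The procedure was tested on simulated data with independent noise. A true difference of 0.5 log2 units was recovered for 42% of changed genes in tumor minus aorta and 64% in tumor minus muscle. For aorta minus muscle the share was 60%, and for sternocleidomastoid minus quadriceps 42%. A gene that passed no test may therefore still differ by such an amount. The number of arrays limits the precision.

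The members and lists were chosen with earlier results of these data known. Values by sample are given for 15 chains on a fixed list, which was also set with those earlier results known. They are also given, per class and comparison, for the 2 chains with the largest difference past the threshold. Col4a5, Col6a6 and Col24a1 fall under neither rule, and their values by sample are given as well. In each pathway list up to 3 genes with the largest difference past the threshold are named. Further genes named, such as Mia3 and Fmod, were chosen after their values were seen. Alternatives were median, quantile and housekeeping centring of arrays, a filter on dim genes, averaging of probe sets, trend and robust options, compared groups only, stricter thresholds, either muscle alone, each array left out, and subsets of tumors added after the data were seen. Promoter sequences and start sites come from RefSeq (GRCm38.p6).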

Additional observations from a re-analysis of the deposited data

Results flagged for a closer look

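For each of the 44 collagen genes and each group, the highest and lowest sample was compared with its nearest neighbour, relative to the range of the group (Dixon's criterion). A sample far from the others was found in 15 of 176 groups, and chance gives about 1 in 20. Aorta 4 was the low sample in 6 of them, for Col1a1 (9.33, next 10.43), Col1a2 (9.01, next 9.67), Col6a1 (8.92, next 9.40), Col6a2 (7.86, next 8.27), Col6a3 (7.81, next 8.39) and Col16a1 (5.36, next 5.74). These are stromal chains, and the 16 genes higher in tumors than in aorta were called with and without aorta 4. Basement membrane chains were low in aorta 4 as well, with a class mean of 6.69 against 6.96 to 6.98 in the other aortas. Aorta 4 also stood apart on marker lists. Its list mean was 9.78 for heart muscle (9.09 to 9.41 in the other aortas) and 11.25 for brown adipocytes (10.68 to 10.78). For smooth muscle it was 9.93 (10.08 to 10.34), and for fibroblasts 8.06 (8.06 to 8.10). The part of tissue content in the low values of aorta 4 was not tested. Tumor 7 was the high tumor for Col7a1 (7.03, next 6.31), Col23a1 (6.78, next 6.28) and Col24a1 (6.19, next 5.58). Among the muscles, sternocleidomastoid 1 was high for Col5a3 (7.29, next 6.78) and Col10a1 (5.43, next 4.95), sternocleidomastoid 4 was low for Col8a2 (5.10, next 5.40) and Col26a1 (6.11, next 6.65), and quadriceps 1 was low for Col23a1 (5.93, next 6.17). Aorta 3 was high for Col25a1 (5.65, next 5.08).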

How the results depend on the processing

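Of the members called, 17 of 21 against aorta, 18 of 23 against muscle and 7 of 12 between aorta and muscle kept their call in every refit run at the same threshold. Centring on 10 housekeeping genes gave 16 members lower in tumors than aorta, 26 lower than muscle, 5 higher and 11 lower in aorta than muscle, and lowered the share of higher among all called genes from 51.5% to 14.1% against aorta, from 49.7% to 12.6% against muscle and from 52.6% to 18% between aorta and muscle. It moves every gene by 1 constant per comparison (-0.33, -0.59 and -0.27). Some members near 0 that had not passed in the comparison named turned sign and then passed as lower: Col11a2 (-0.32) and Col13a1 (-0.32) against aorta, Col2a1 (-0.55), Col4a4 (-0.57), Col6a4 (-0.35), Col7a1 (-0.49), Col8a2 (-0.44), Col10a1 (-0.33), Col23a1 (-0.48), Col25a1 (-0.43) and Col28a1 (-0.53) for tumor against muscle, and Col20a1 (-0.26) for aorta against muscle. Members that turned sign without passing are not listed. At a fold of at least 2, 2 members were lower than aorta and 0 lower than muscle, and aorta had 4 higher and 0 lower than muscle. With an adjusted p under 0.01, 6 were higher in aorta than muscle, as with quadriceps alone. Median centring and quantile normalization each gave 4 members lower in aorta than muscle, and a fit of the compared groups only gave 5 lower and 15 higher, 9 of them among the 10. Lower than muscle, 3 were called against sternocleidomastoid alone and 3 with tumors 5 to 7 alone, which also gave 3 lower than aorta. Leaving out 1 array at a time gave 16 to 17 members higher and 4 to 6 lower than aorta, 17 to 19 higher and 6 lower than muscle, 6 to 12 higher and 2 to 3 lower in aorta than muscle, and 0 higher and 0 to 1 lower in sternocleidomastoid than quadriceps. No paired analysis was possible because the labels give no animal and replicate numbers only name samples. Weak signal limits the 13 members dim in all groups.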
